A study of Danio rerio with 12 samples.

Results

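Expression of 10 genes of cholesterol synthesis and uptake was examined in hearts of adult zebrafish that carried 2 mutant or 2 wild-type copies of myd88, the gene of the adaptor protein that passes signals from most Toll-like receptors and the interleukin-1 receptors into the cell. The genes were chosen by name, with earlier results of these data known. Each matched 1 row of a table of 22736 Ensembl genes. Of them, hmgcs1, hmgcra, idi1, sqlea, lss, cyp51 and dhcr7 encode enzymes of the synthesis pathway, ldlra encodes a lipoprotein receptor, and srebf2 and insig1 encode regulators. The 12 libraries came from 6 conditions with 2 libraries each: untouched (UT) myd88-/- ventricles, myd88-/- injured tissue at 1 hour and at 24 hours post cryoinjury (hpci), and the same 3 states in myd88+/+ siblings. Cryoinjury kills a patch of the ventricle by freezing. The mutants carried the hu3568 allele in every cell, the fish were of the AB strain, of both sexes and 3 to 12 months old, and each library was made from 3 pooled ventricles or injured tissues. UT libraries held ventricle and the other libraries held injured tissue, so any difference between states mixes the injury with the sampled region of the heart.

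Values are normalized counts, that is, reads counted on the exons of a gene, divided by the size factor of the library and rounded. The normalized totals of the libraries were between 2998177 and 3747891. Depth was estimated from the steps between the lowest values as 3036272 to 4121336 reads in 11 libraries and as 1476013 reads in myd88+/+ 24 hpci replicate 1, where 1 read was worth 2.54 normalized counts. The same library held a summed level of 8 rows of cardiomyocyte markers, with actc1a on 2 rows, of 12020, against 5550 in its replicate. The gap was uneven: myl7 was at 1561 and 548 in the 2 replicates, cmlc1 at 1332 and 444, and ttn.2 at 2952 and 2172. Markers of other cells were also higher there, with the red cell gene hbaa1 at 713 against 286 and summed macrophage markers at 4559 against 2661. Of the macrophage markers, csf1ra was lower, at 302 against 446. Summed endothelial markers were at 4345 and 4030. Whether depth or the share of muscle or of other cells lay behind these values was not tested. The heart muscle, endothelial, macrophage and red cell markers examined were all detected in every condition. Some of the 4 adipocyte and 5 hepatocyte marker rows were at 0 in both libraries of some conditions. myd88 itself (chr24:20188914-20192996) was measured at 32 and 37 in myd88-/- and at 63 and 56 in myd88+/+ UT ventricles, a difference that did not pass the test (limma adjusted p = 0.19). A count over the whole gene does not show the mutation and is no check of the genotype. In bulk tissue, fewer cells of a type and less RNA per cell cannot be told apart.

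Cells obtain cholesterol by making it from acetyl-CoA and by taking up lipoproteins. Synthesis runs through HMG-CoA and mevalonate, whose formation by HMG-CoA reductase is the rate-controlling step and the target of statins, then through isoprenoid units to squalene, lanosterol and cholesterol. When membranes of the endoplasmic reticulum are poor in sterol, SREBP2 is carried to the Golgi, is cleaved and switches on the genes of nearly the whole pathway together with the LDL receptor. When sterol is plentiful, INSIG proteins hold SREBP2 back and promote the breakdown of HMG-CoA reductase. This control is best known from mammalian cells. The adult heart relies largely on fatty acids for fuel, and macrophages that clear dead cells after an injury take in large amounts of cholesterol.

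**Figure D1:**
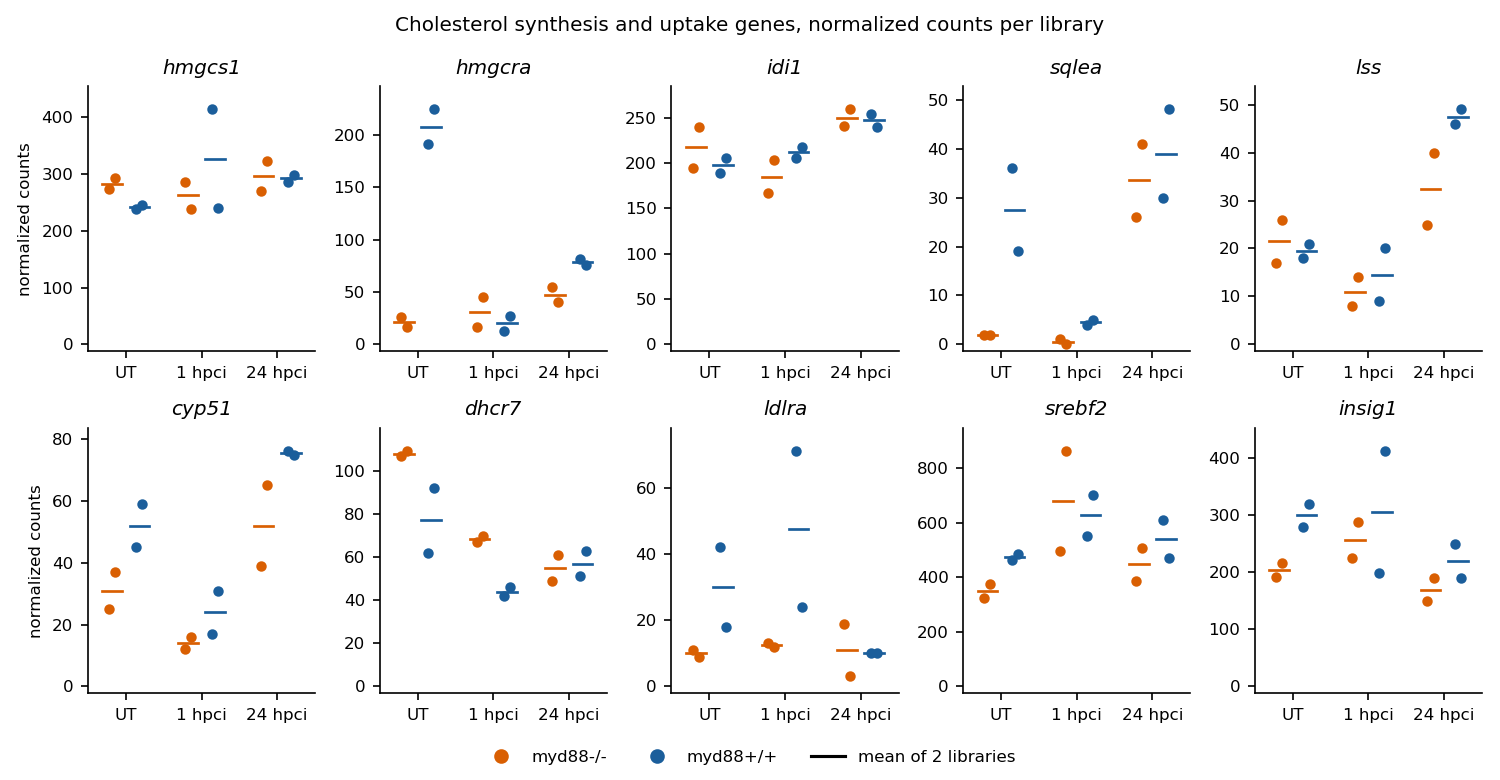
Normalized counts (vertical axis, linear, with 0 shown, and its own range in each panel) of the 10 genes in the 3 states; each point is 1 library of 3 pooled samples, bars are means of 2 libraries, and myd88-/- is drawn to the left of myd88+/+. The 2 myd88-/- UT libraries lie at 26 and 17 for hmgcra and at 2 and 2 for sqlea, far below the myd88+/+ UT libraries at 191 and 224 and at 36 and 19.

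The genotypes differed in UT ventricles in hmgcra and sqlea, which encode the 2 enzymes of the pathway that are best known as control points. hmgcra (HMG-CoA reductase, chr5:50972485-50992775, minus strand) was measured at 26 and 17 normalized counts in myd88-/- UT ventricles, against 191 and 224 in myd88+/+ UT ventricles. Both mutant libraries were lower than either wild-type library, and the ratio of means was 9.65-fold. sqlea (squalene epoxidase, which adds oxygen to squalene, chr16:43401005-43413293, plus strand) was measured at 2 and 2 in myd88-/- UT ventricles, against 36 and 19 in myd88+/+ UT ventricles. The groups did not overlap. These mutant values rest on about 4 reads, against about 52 reads in the wild type, and the wild-type level was 13.8 times the mutant level with an exact 95% counting interval of 5.07 to 52.5, which covers counting error only.

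On log2(normalized count + 1), the scale of every difference and test given here, the myd88-/- minus myd88+/+ difference in UT ventricles was -3.24 ± 0.48 (SE) for hmgcra and -3.18 ± 0.57 (SE) for sqlea. Genes were called at a limma adjusted p below 0.05, over all 16643 genes tested, together with a change of more than 1.5-fold. The adjusted p was 0.011 for hmgcra and 0.024 for sqlea. So 2 of the 10 genes were called lower in the mutant, where 1.15% of all genes were, and none was called higher. The 10 genes were chosen with earlier results of these data known, so this count is a description. With 2 libraries against 2 the smallest p of an exact two-sided permutation test is 0.333. For hmgcra the adjusted p was 0.11 without myd88+/+ UT replicate 1, 0.085 without myd88+/+ UT replicate 2 and 0.11 without myd88-/- UT replicate 2, with differences between -3.53 and -2.94 when 1 library was left out. For sqlea it was 0.27 and 0.085 without myd88+/+ UT replicates 1 and 2, 0.11 and 0.16 without myd88-/- UT replicates 1 and 2, and 0.0502 without myd88-/- 24 hpci replicate 2, and the call was also narrowly lost when only the UT libraries were fitted (adjusted p = 0.0503). The sqlea difference was between -3.62 and -2.74 over these fits.

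Over the other 8 genes the UT difference did not pass the test, with adjusted p between 0.40 and 0.97. Both myd88-/- UT libraries lay below both myd88+/+ UT libraries in 6 of the 10 genes, where this held for 31% of all genes tested. Beside hmgcra and sqlea these were cyp51, ldlra, srebf2 and insig1. The opposite order held for 2 of the 10 (hmgcs1 and dhcr7) and for 27.2% of all genes. The median difference of the 10 genes was -0.50, against -0.02 for all genes. hmgcrb, a second zebrafish gene for HMG-CoA reductase, was measured at 381 and 404 in myd88-/- and at 664 and 531 in myd88+/+ UT ventricles, a difference of -0.60 ± 0.23 (SE) that did not pass (adjusted p = 0.22). Reads that fitted both copies were removed before counting, so what each copy lost is unknown. Of 8 immediate early genes, which respond within minutes to many stimuli, 2 (atf3 and fosb) were also called lower in myd88-/- UT ventricles, and all 8 had a negative difference at an unadjusted p below 0.05. Among all 16643 genes 1.15% were called lower, and 2718 had an unadjusted p below 0.05 in either direction. The 8 had summed levels of 1053 and 1761, against 3750 and 3046 in myd88+/+ UT ventricles. Their part in the result was not tested. Summed cardiomyocyte markers were 9569 and 9265 in myd88-/- and 11285 and 11434 in myd88+/+ UT ventricles, with none of the 8 rows called. The largest part was ttn.2, at 4853 and 4118 in myd88-/- and 6077 and 6179 in myd88+/+. Removing duplicates caps highly expressed genes, so the lack of calls does not show an equal share of muscle.

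After injury the genotype differences were not called in any of the 10 genes. At 1 hpci 0 of 10 were called by limma, where 0.12% of all genes were called. An unadjusted p below 0.05 was reached by 2 of the 10 (sqlea and dhcr7) and by 1472 of all 16643 genes. sqlea was then at 1 and 0 in myd88-/- injured tissue, against 4 and 5 in myd88+/+ injured tissue, and its difference was -1.95 ± 0.57 (SE, adjusted p = 0.28). The mutant value is a single read, and the myd88+/+ level was 9.87 times as high with an exact counting interval of 1.4 to 428. Both myd88-/- libraries lay below both myd88+/+ libraries in 4 of 10 genes (idi1, sqlea, cyp51 and ldlra), where 15.5% of all genes did so, and above them in 1 (dhcr7), where 13.4% of all genes did. At 24 hpci an unadjusted p below 0.05 was reached by 0 of the 10 and by 853 of all 16643 genes. Of the 10, 0 were called, where 0.03% of all genes were called. These shares of all genes rest on single libraries. The genes called at 24 hpci were 5, and 2156 without myd88+/+ 24 hpci replicate 2, and those called at 1 hpci were 20, and 295 without myd88+/+ 1 hpci replicate 1, with 0 of the 10 called in either fit. The fit without myd88+/+ 24 hpci replicate 2 left replicate 1, the library of low depth, alone in its condition. At 24 hpci both myd88-/- libraries lay below both myd88+/+ libraries in 4 of 10 genes (hmgcra, lss, cyp51 and insig1), against 12.2% of all genes. cyp51 was the 1 gene of the 10 in this order in all 3 states, and its genotype difference was called in none of them. The share of all genes in this order in all 3 states was not counted.

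**Figure D2:**
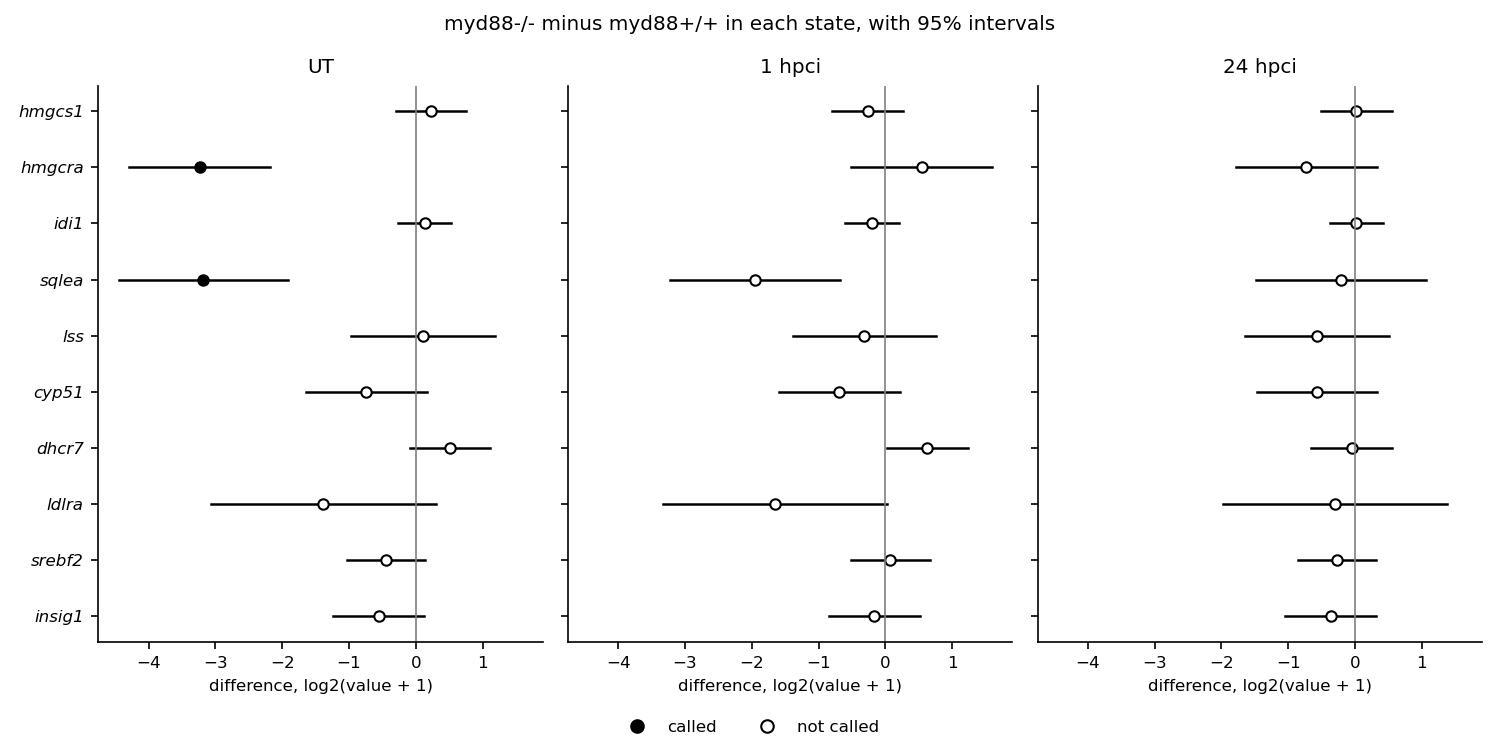
Difference between genotypes, myd88-/- minus myd88+/+, on the log2(normalized count + 1) scale in the 3 states; points are limma estimates from 2 libraries per group, lines are 95% intervals not adjusted for the number of genes, and filled points were called. The filled points are hmgcra at -3.24 and sqlea at -3.18 in UT ventricles, and none is filled at 1 or 24 hpci.

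Across the states, hmgcra was highest in myd88+/+ UT ventricles. Its myd88-/- values were 26 and 17 (UT), 17 and 45 (1 hpci) and 55 and 40 (24 hpci). Its myd88+/+ values were 191 and 224 (UT), 13 and 27 (1 hpci) and 81 and 76 (24 hpci). The wild-type libraries of the 3 states did not overlap, with the lowest level at 1 hpci and an intermediate level at 24 hpci, whereas the mutant libraries of UT and 1 hpci overlapped. In myd88+/+ hearts hmgcra was lower at 1 hpci than in UT ventricles, at -3.39 ± 0.48 (SE, adjusted p = 0.0030), a call that was lost when only these 2 conditions were fitted (adjusted p = 0.056). It was 3.93 times as high at 24 hpci as at 1 hpci in the ratio of means (adjusted p = 0.0088) and remained lower at 24 hpci than in UT ventricles, at -1.39 ± 0.48 (adjusted p = 0.039). No hmgcra difference between states passed in myd88-/- hearts: 0.38 ± 0.48 at 1 hpci against UT, and 1.12 ± 0.48 at 24 hpci against UT (adjusted p = 0.10).

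Whether the change from UT differed with the genotype was tested by the interaction term of the limma model. For hmgcra it was 3.78 ± 0.68 (SE) at 1 hpci (adjusted p = 0.080) and 2.51 ± 0.68 at 24 hpci (adjusted p = 0.30), and neither passed. At 1 hpci 0 of 10 genes were called, where 0.138% of all genes were called. An unadjusted p below 0.05 was reached by 1 of the 10 and by 1425 of all 16643 genes. At 24 hpci 0 of 10 were called, where 0.0481% of all genes were called. An unadjusted p below 0.05 was reached by 2 of the 10 (hmgcra and sqlea) and by 1394 of all 16643 genes. Without myd88+/+ 1 hpci replicate 1 the interaction at 1 hpci was called in 223 genes, against 23 with all libraries, and without myd88+/+ 24 hpci replicate 2 that at 24 hpci was called in 1235, against 8, with 0 of the 10 genes among them. The fit without myd88+/+ 24 hpci replicate 2 left only replicate 1, the library of low depth, in that condition. The interactions share the UT libraries with the UT genotype difference and with each other. The lower wild-type level at 24 hpci was lost without any 1 of the 4 myd88+/+ UT and 24 hpci libraries (adjusted p 0.091 to 0.17), and narrowly without either myd88-/- 24 hpci library (0.051 and 0.052). The difference between 24 and 1 hpci in the wild type was lost without myd88+/+ 1 hpci replicate 1 (adjusted p = 0.066).

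The mean level of sqlea was lowest at 1 hpci in both genotypes. Its myd88-/- values were 2 and 2 (UT), 1 and 0 (1 hpci) and 26 and 41 (24 hpci). Its myd88+/+ values were 36 and 19 (UT), 4 and 5 (1 hpci) and 30 and 48 (24 hpci). In myd88-/- hearts the UT and 1 hpci levels rest on about 4 reads and 1 read. The ratio of UT to 1 hpci was 4.28 there, with an exact counting interval of 0.423 to 211, which does not show a fall. The UT and 24 hpci libraries overlapped in the wild type only, and at 24 hpci the libraries of the genotypes overlapped. The mutant sqlea level was higher at 24 hpci than in UT ventricles by 3.49 ± 0.57 (SE, adjusted p = 0.0016), on about 89 reads against 4, a ratio of 16.6 with an exact counting interval of 6.26 to 62.2. It was also higher than at 1 hpci, by 4.57 ± 0.57 (adjusted p = 0.00029), on about 89 reads against 1, for which the lower end of the counting interval of the ratio was 12.4. In myd88+/+ hearts sqlea was lower at 1 hpci than in UT ventricles, at -2.31 ± 0.57 (adjusted p = 0.034), and was higher at 24 hpci than at 1 hpci by 2.83 ± 0.57 (adjusted p = 0.0038). The 24 hpci against UT difference in myd88+/+ hearts was 0.52 ± 0.57 (adjusted p = 0.49). The wild-type fall at 1 hpci was lost in 8 of the fits that left out 1 library, namely any UT library of either genotype, either myd88+/+ 1 hpci library or either myd88-/- 24 hpci library, with adjusted p up to 0.26 and differences between -2.76 and -1.87. It was also lost when only these 2 conditions were fitted (adjusted p = 0.0997). The other sqlea calls between states held without any 1 library.

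lss and cyp51 encode successive enzymes after squalene epoxidase, and their mean levels were lowest at 1 hpci and highest at 24 hpci. lss (lanosterol synthase, which closes the sterol rings, chr9:38481780-38500391, plus strand) was at 17 and 26 (UT), 8 and 14 (1 hpci) and 25 and 40 (24 hpci) in myd88-/- hearts. The myd88+/+ values of lss were 18 and 21, 9 and 20, and 46 and 49 in the same states. The 24 hpci libraries were above the 1 hpci libraries in both genotypes. cyp51 (lanosterol demethylase, chr19:598657-617246, minus strand) was at 25 and 37, at 12 and 16 and at 39 and 65 in myd88-/- hearts in UT, 1 hpci and 24 hpci. It was at 45 and 59, at 17 and 31 and at 76 and 75 in myd88+/+ hearts. No 1 hpci library overlapped a UT or 24 hpci library of its genotype in cyp51.

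Between 24 and 1 hpci, lss rose by 1.49 ± 0.49 (SE, adjusted p = 0.035) in myd88-/- and by 1.74 ± 0.49 (adjusted p = 0.018) in myd88+/+ hearts. cyp51 rose by 1.79 ± 0.41 (adjusted p = 0.0068) in myd88-/- and by 1.67 ± 0.41 (adjusted p = 0.0098) in myd88+/+ hearts. In cyp51 the 1 hpci against UT difference was -1.08 in myd88-/- and -1.13 in myd88+/+ hearts and passed in neither (both adjusted p = 0.12). The mutant lss call was lost without either myd88-/- 24 hpci library, myd88-/- 1 hpci replicate 1 or either myd88+/+ UT library (adjusted p up to 0.22, differences 1.12 to 1.86). The wild-type lss call was lost without myd88+/+ 1 hpci replicate 1 or myd88+/+ 24 hpci replicate 1, the library of low depth (adjusted p up to 0.11, differences 1.21 to 2.28). The cyp51 call was lost in the mutant without myd88-/- 24 hpci replicate 2 (adjusted p = 0.078) and in the wild type without myd88+/+ 1 hpci replicate 1 (adjusted p = 0.064). When only the 1 and 24 hpci libraries of a genotype were fitted, the call was lost for lss in both genotypes (adjusted p = 0.057 in myd88-/- and 0.11 in myd88+/+) and for cyp51 (0.079) and hmgcra (0.059) in myd88+/+ hearts, and was kept for sqlea in both and for cyp51 in myd88-/- hearts. lss overlaps mcm3ap on the same strand. Reads that overlap several genes were not counted, so part of lss may be missing from its values.

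Of the 10 genes, 3 were called higher at 24 hpci than at 1 hpci in myd88-/- hearts (sqlea, lss and cyp51), where 18.1% of all genes were called higher. The myd88+/+ count was 4 (the same 3 and hmgcra), where 16.9% of all genes were. Against UT, the counts at 24 hpci were 1 higher (sqlea, 15.6% of all genes) and 1 lower (dhcr7, 14.5% of all genes) in myd88-/- hearts. In myd88+/+ hearts they were 0 higher (19% of all genes) and 1 lower (hmgcra, 20.9% of all genes). There 2 of the 10 and 8405 of all 16643 genes had an unadjusted p below 0.05. At 1 hpci against UT, 0 of 10 were called in myd88-/- hearts by limma, where 10.4% of all genes were called. An unadjusted p below 0.05 was reached there by 3 of the 10 and by 4303 of all 16643 genes. In myd88+/+ hearts 2 of 10 fell at 1 hpci against UT (hmgcra and sqlea), where 3.73% of all genes did. The 10 genes had median differences between -0.28 and 0.31 in these 6 comparisons, against -0.04 to 0.0042 for all genes, and they did not move in 1 direction as a list. Over the same times macrophage markers rose. Of 6, all 6 were called higher at 24 hpci than at 1 hpci in both genotypes, with summed levels of 2588 and 2974 against 414 and 348 in myd88-/- hearts, and of 4559 and 2661 against 667 and 978 in myd88+/+ hearts. Of 4 tested adipocyte markers, pparg and cidec were also called higher at 24 than at 1 hpci in both genotypes. Of the others, adipoqb was called lower in myd88+/+ hearts and fabp11a was not called. The adipoqb values there were 0 and 0 at 24 hpci against 2 and 65 at 1 hpci, so the call rests on replicate 2 at 1 hpci. The tested hepatocyte markers, tfa and ambp, were called lower at 24 hpci than in UT ventricles in both genotypes. The part of these cell types in the higher levels of sqlea, lss and cyp51, and of hmgcra in myd88+/+ hearts, was not tested.

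**Figure D3:**
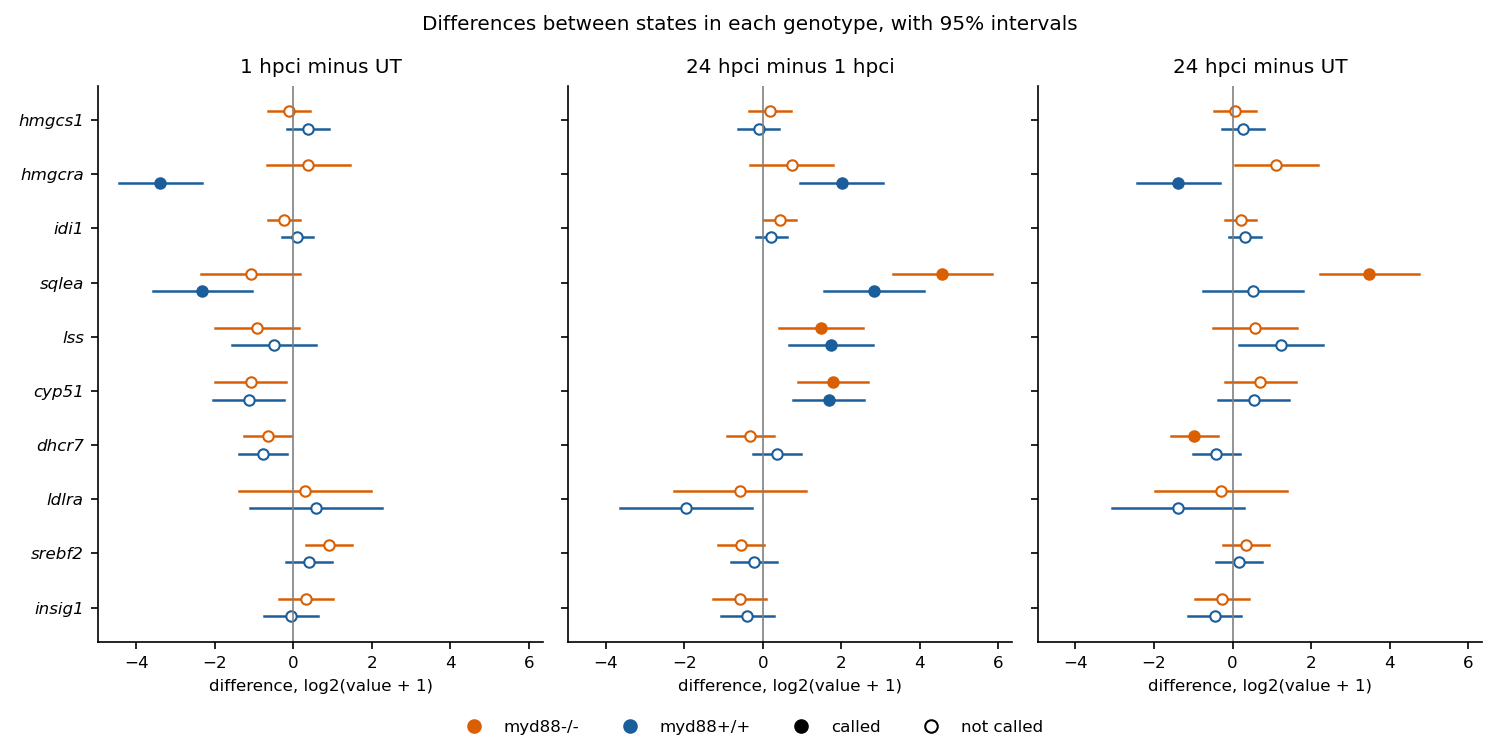
Differences between states within each genotype on the log2(normalized count + 1) scale for 1 hpci minus UT, 24 hpci minus 1 hpci and 24 hpci minus UT; points are limma estimates from 2 libraries per group with unadjusted 95% intervals, myd88-/- is drawn above myd88+/+, and filled points were called. In the middle panel sqlea, lss and cyp51 are filled to the right of 0 in both genotypes, and hmgcra is filled in myd88+/+ but not in myd88-/- (0.74).

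hmgcs1 and idi1, of the early part of the pathway, passed none of the 11 comparisons. hmgcs1 (HMG-CoA synthase, the step before the reductase, chr10:6010570-6034397, plus strand) was between 239 and 324 in the 6 myd88-/- libraries and between 239 and 414 in the 6 myd88+/+ libraries. In UT ventricles it was at 274 and 293 in myd88-/-, above the 239 and 245 in myd88+/+, in the opposite order to hmgcra. The UT difference was 0.23 with a 95% interval of -0.30 to 0.75. idi1 (isopentenyl-diphosphate isomerase, which interconverts the isoprenoid units, chr24:3469373-3477103, minus strand) lay between 167 and 259 in myd88-/- and between 189 and 254 in myd88+/+ libraries. Its genotype differences were 0.13 in UT ventricles (interval -0.27 to 0.53), -0.20 at 1 hpci (-0.60 to 0.20) and 0.02 at 24 hpci (-0.38 to 0.42). idi1 lies on the chromosome of myd88.

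dhcr7 (sterol reductase of the last step to cholesterol, chr2:28648888-28682476, minus strand) was at 107 and 109 (UT), 67 and 70 (1 hpci) and 49 and 61 (24 hpci) in myd88-/- hearts. The myd88+/+ values of dhcr7 were 62 and 92, 42 and 46, and 51 and 63. The 3 states did not overlap in the mutant, with UT highest, and the wild-type 24 hpci libraries reached into the UT range. dhcr7 fell in myd88-/- hearts at 24 hpci against UT by 0.97 ± 0.27 (SE, adjusted p = 0.021), a call lost without any 1 of the 4 libraries compared (adjusted p up to 0.12, differences -1.12 to -0.81). The myd88+/+ difference was -0.41 ± 0.27 (adjusted p = 0.25), and the interaction of -0.56 did not pass (adjusted p = 0.72). Between 24 and 1 hpci its difference was -0.32 in myd88-/- and 0.36 in myd88+/+ hearts, and neither passed. It overlaps nadsyn1 on the opposite strand, and the strand setting of the counting is not given in the sources used here.

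The uptake gene ldlra (LDL receptor, which takes up lipoproteins, chr3:19299309-19323689, plus strand) was low throughout, and its replicates were far apart in myd88+/+ UT and 1 hpci and in myd88-/- 24 hpci libraries and close in the other 3 conditions. Its myd88-/- values were 11 and 9 (UT), 13 and 12 (1 hpci) and 19 and 3 (24 hpci), and its myd88+/+ values were 42 and 18, 71 and 24, and 10 and 10. The myd88+/+ 24 hpci values rest on about 17 reads together. In replicate 1, the library of low depth, 3 reads were worth 7.62, so the closeness of these values says little. Both mutant libraries were below both wild-type libraries in UT ventricles and at 1 hpci, and the groups overlapped at 24 hpci. The genotype difference was -1.38 with an interval of -3.06 to 0.30 in UT ventricles and -1.65 with an interval of -3.33 to 0.03 at 1 hpci, and neither passed (adjusted p = 0.42 and 0.57). From counting alone the wild-type level was 2.88 times the mutant level in UT ventricles (exact 95% interval 1.72 to 5) and 3.58 times at 1 hpci (2.32 to 5.71); these intervals leave out the spread between replicates. The wild-type 24 hpci against 1 hpci difference was -1.95 (adjusted p = 0.068) and was called without myd88+/+ 1 hpci replicate 2 or either myd88-/- 24 hpci library (adjusted p down to 0.032). Its paralog ldlrb was at 33 and 36 in myd88-/- UT ventricles, against 130 and 93 in myd88+/+ UT ventricles, and was called lower (-1.65 ± 0.36, adjusted p = 0.044). Among all genes 1.15% were called lower in this comparison. Whether the ldlrb call held without single libraries was not examined.

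No difference in either regulator passed the test with all libraries and the settings used throughout. srebf2 (SREBP2, the transcription factor of the pathway, chr3:1107102-1130892, plus strand) was at 323 and 374 (UT), 498 and 861 (1 hpci) and 387 and 508 (24 hpci) in myd88-/- hearts. The myd88+/+ values were 463 and 485, 551 and 703, and 609 and 471. Both 1 hpci libraries were above both UT libraries in each genotype. The srebf2 difference at 1 hpci was 0.91 ± 0.27 in myd88-/- (SE, adjusted p = 0.053) and 0.39 ± 0.27 in myd88+/+ hearts (adjusted p = 0.40). The mutant difference was called without myd88-/- 1 hpci replicate 1 (1.31, adjusted p = 0.020) and without either myd88+/+ 24 hpci library, and also with TMM factors (another scaling of the libraries) or with the replicate number as a block, whether as labelled or crossed. insig1 (the sterol-sensing retention protein, itself an SREBP2 target in mammals, chr7:41007773-41014773, minus strand) was at 191 and 216, at 225 and 287 and at 150 and 189 in myd88-/- hearts in UT, 1 hpci and 24 hpci. It was at 279 and 319, at 199 and 411 and at 249 and 190 in myd88+/+ hearts. Its myd88-/- minus myd88+/+ differences were -0.55, -0.17 and -0.37 in the 3 states, none passing, and the UT interval was -1.23 to 0.13. insig1 overlaps si:dkey-151p11.2 on the opposite strand.

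Over the 12 libraries the 10 genes did not vary as 1 group. Of 45 pairs, 22 had a Pearson r above 0 and 5 had an r above 0.7, with a median of -0.02. The 5 pairs were lss with cyp51 (0.92), sqlea with cyp51 (0.87), idi1 with lss (0.86), idi1 with cyp51 (0.73) and sqlea with lss (0.71). hmgcra correlated with sqlea and cyp51 at 0.65 each. hmgcs1, by contrast, had its lowest r with insig1 (-0.58). With the mean z-score of the 10 genes, r was 0.91 for cyp51, 0.79 for sqlea and lss, 0.70 for hmgcra and 0.65 for idi1, and between -0.17 and 0.22 for the other 5. These r values are raised because each of the 10 is part of the mean. They cannot be set against those of genes outside the 10. The libraries share 6 conditions, so these are descriptions with no test. The genes outside the 10 most like this mean were kdm2aa (0.88), ttll4 (0.88) and cyp27c1 (0.88), followed by eif4e1c, gtf3aa, mak16, CU459065.1, inpp5b, fpgs and phlda3 (0.86). None of these belongs to the sterol lists examined.

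The other 15 enzymes of cholesterol synthesis in the table were examined in the same fit, and their median difference at 24 hpci against UT was 0.41 in myd88-/- and 0.26 in myd88+/+ hearts. At 24 hpci against UT, 2 were higher and 1 lower in myd88-/- and 2 higher and 0 lower in myd88+/+ hearts. Among all genes the shares in this comparison were 15.6% higher and 14.5% lower in myd88-/- and 19% higher and 20.9% lower in myd88+/+ hearts, so 2 of 15 was no more than the background. acat2 (which joins acetyl-CoA units for the first step) was at 128 and 173 at 24 hpci and 58 and 76 in UT ventricles in myd88-/-, and at 221 and 227 and at 42 and 48 in myd88+/+ hearts. It rose by 1.15 ± 0.27 (adjusted p = 0.0093) and by 2.29 ± 0.27 (adjusted p = 0.00019) in these genotypes. mvk (mevalonate kinase, the step after the reductase) rose by 1.67 ± 0.50 in myd88-/- (adjusted p = 0.028) and by 2.04 ± 0.50 in myd88+/+ hearts (adjusted p = 0.0094). The enzyme that was lower in myd88-/- hearts was msmo1 (-0.94). Between 24 and 1 hpci 4 of 15 rose and none fell in each genotype: acat2, mvk and nsdhl in both, with pmvk in myd88-/- and mvda in myd88+/+ hearts. Among all genes 18.1% rose in myd88-/- and 16.9% in myd88+/+ hearts, a background not far below 4 of 15. At 1 hpci against UT, nsdhl (-1.32) and fdft1 (-1.08) were lower in myd88-/- hearts, where 4.55% of all genes were. In myd88+/+ hearts 0 of 15 were called, with 5 at an unadjusted p below 0.05, where 4119 of all 16643 genes had such a p. No enzyme of the 15 was called by limma between the genotypes in any state, with 1 at an unadjusted p below 0.05 in UT ventricles and 0 at 1 and at 24 hpci. In this paragraph msmo1, nsdhl, pmvk, mvda and fdft1 were named after their values were seen.

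Of 8 other regulators of SREBP, 1 was higher in myd88-/- and 1 higher and 2 lower in myd88+/+ hearts at 24 hpci against UT. The shares of all genes called in this comparison (15.6% higher and 14.5% lower in myd88-/-, 19% and 20.9% in myd88+/+) are the background for these counts and for those of the lists that follow. The 2 lower in myd88+/+ hearts were srebf1, the SREBP of fatty acid synthesis, at 5 and 50 against 242 and 238 (-3.78 ± 0.78, adjusted p = 0.0038), and scap, the escort of both SREBPs, at 15 and 40 against 122 and 115 (-2.22 ± 0.67, adjusted p = 0.023). The srebf1 value of 5 is from replicate 1, the library of low depth, where 3 reads were worth 7.62 normalized counts. It is below that floor, so the size of the wild-type fall is uncertain. In myd88-/- hearts srebf1 was at 43 and 25 at 24 hpci, against 160 and 87 in UT ventricles (-1.82 ± 0.78, adjusted p = 0.10). mbtps2, a protease that cleaves SREBPs, was higher in myd88-/- UT ventricles, at 148 and 149 against 74 and 74 in myd88+/+ UT ventricles (1.00 ± 0.20, adjusted p = 0.033), where 0.937% of all genes were called higher. Its direction was opposite to that of hmgcra and sqlea, and whether the call held without single libraries was not examined. mbtps2 rose at 24 hpci in myd88+/+ hearts (1.08, adjusted p = 0.0020). The gene higher at 24 hpci in myd88-/- hearts was rnf139 (0.63), named after its value was seen. Of 6 tested targets of SREBP1 in fatty acid synthesis, 4 were lower and none higher at 24 hpci against UT in each genotype, with a median of -1.21 in myd88-/- and -1.10 in myd88+/+ hearts. scd, which makes unsaturated fatty acids, was at 60 and 9 against 330 and 268 in myd88-/-, and at 15 and 17 against 391 and 253 in myd88+/+ hearts. acaca, the enzyme that commits carbon to fatty acid synthesis, had differences of -0.77 in myd88-/- and -1.15 in myd88+/+ hearts, and fasn, which builds the chain, of -0.61 and -1.04 in the same order. The fourth was fads2 in myd88-/- hearts (-2.69, named after its value was seen) and acsl3a in myd88+/+ hearts, at 3 and 0 against 20 and 16. The acsl3a value of 3 is from the library of low depth and is also below its floor of 3 reads. At 1 hpci against UT, acaca, fads2 and elovl6 were called lower in myd88-/- hearts, where 4.55% of all genes were. In myd88+/+ hearts fasn was (-1.44, limma adjusted p = 0.0025), where 3.73% of all genes were. scd was then at 131 and 8 in myd88-/- and at 48 and 6 in myd88+/+ hearts and was not called. In myd88-/- hearts elovl6 was at 1 and 8 at 1 hpci, against 16 and 25 in UT ventricles. It did not stay low: at 24 hpci it was at 33 and 28 and was not called against UT (0.58). Against 1 hpci it was then called higher (2.89, limma adjusted p = 0.0041), where 18.1% of all genes were. fads2 and elovl6 were named here after their values were seen.

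Genes that move cholesterol into, within and out of cells were counted in the same fit. Of 11 tested genes of uptake and trafficking, 5 rose and 3 fell at 24 hpci against UT in myd88-/-, and 4 rose and 1 fell in myd88+/+ hearts, with medians of 0.80 and 0.65. scarb1 (an HDL receptor) was at 215 and 199 against 44 and 58 in myd88-/-, and at 185 and 196 against 47 and 52 in myd88+/+ hearts, rising by 2.01 ± 0.25 and 1.92 ± 0.25 (SE). stard3, a cholesterol transfer protein of endosomes, rose in both genotypes (0.81 in myd88-/- and 1.43 in myd88+/+). npc2, which hands cholesterol on in lysosomes, rose in myd88+/+ hearts (1.16), at 787 and 367 against 251 and 231. The 787 is from replicate 1, the library of low depth. In myd88-/- hearts npc2 was at 346 and 410 against 207 and 226 and was not called. ldlrap1a, an adaptor of the LDL receptor, was lower in both (-1.89 in myd88-/- and -2.98 in myd88+/+). Its myd88+/+ values at 24 hpci were 8 and 2, and in replicate 1 a value of 7.62 stood for 3 reads. The other calls, named after their values were seen, were npc1 (higher in both), ldlrap1b and ldlrb (higher in myd88-/-) and mylipa and vldlr (lower in myd88-/-). Of 6 tested genes of efflux and storage, 4 rose and none fell in each genotype, with a median of 1.35 in myd88-/- and 0.99 in myd88+/+ hearts. They were apoeb (apolipoprotein E), soat1 (which esterifies cholesterol for storage), and the cholesterol exporters abca1a (0.93 in myd88-/- and 0.76 in myd88+/+) and abca1b. soat1 was at 186 and 140 at 24 hpci against 15 and 5 in UT in myd88-/-, and at 51 and 210 against 29 and 16 in myd88+/+ hearts. Its interaction of genotype with time did not pass (1.84, adjusted p = 0.65). apoeb was at 599 and 702 against 14 and 33 in myd88-/-, and at 934 and 556 against 22 and 29 in myd88+/+ hearts. These genes are active in macrophages, and against UT 6 of 6 macrophage markers were called higher at 24 hpci in myd88-/- and 5 of 6 in myd88+/+ hearts. Their part was not tested. Of 6 enzymes of the isoprenoid branch, none was called in myd88-/- hearts (1 at an unadjusted p below 0.05), and fntb (0.85) and icmt (0.71) rose in myd88+/+ hearts. Between the genotypes, the calls over these lists were mbtps2 and ldlrb in UT ventricles and none at 1 or 24 hpci.

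**Figure D4:**
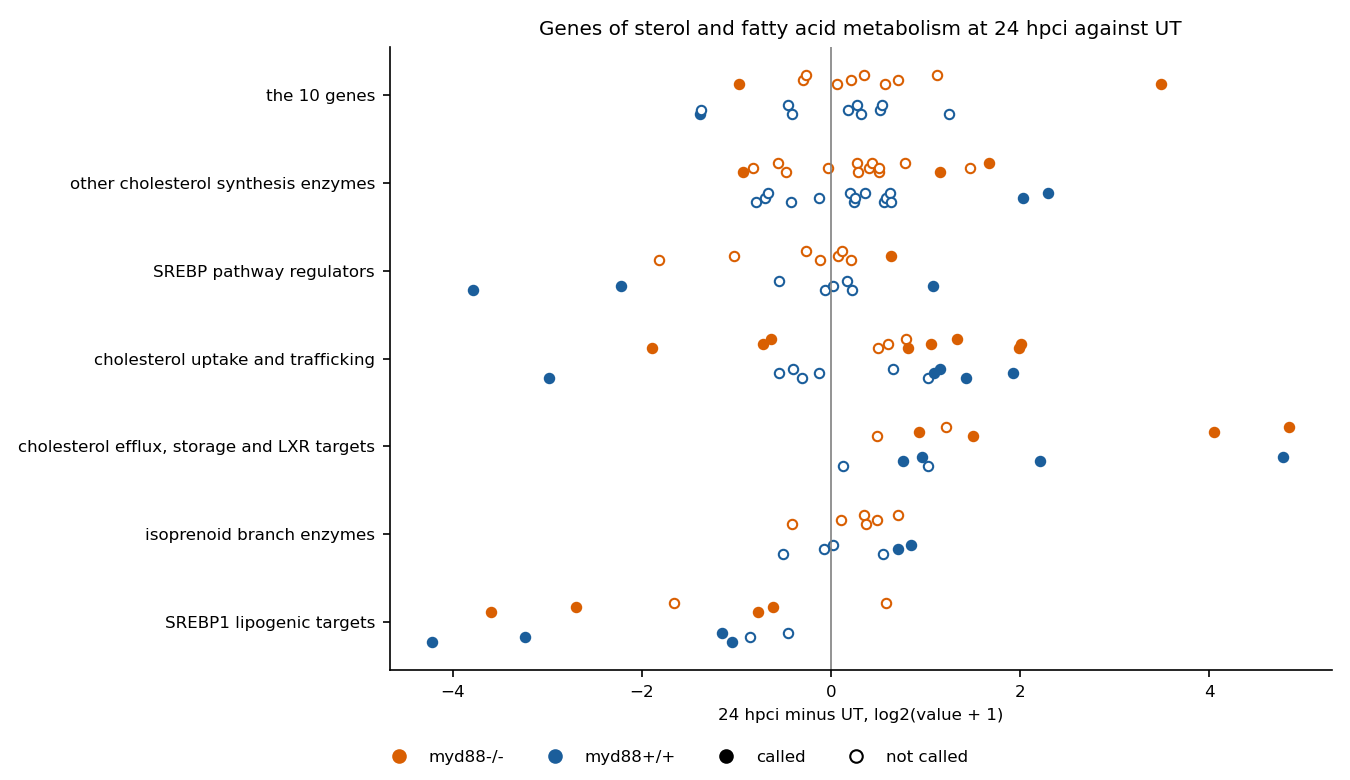
Difference between 24 hpci and UT on the log2(normalized count + 1) scale for each tested gene of the 10 and of 6 other lists of sterol and fatty acid metabolism; each point is 1 gene, myd88-/- is drawn above myd88+/+, filled points were called, and points are shifted vertically to limit overlap. Efflux and storage genes lie to the right of 0 in both genotypes, with apoeb at 4.85 and 4.78, and 4 of 6 lipogenic targets are filled to the left of 0 in each genotype.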

How the data were processed

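The authors trimmed single-end reads (Trimmomatic 0.39), aligned them to danRer11 (STAR 2.7.3a), removed duplicate, multimapping, ribosomal and mitochondrial reads (Picard 2.21.7), counted reads on exons (featureCounts 1.6.5) and normalized (DESeq2 1.26.0). The deposited values are a score, namely whole-number normalized counts that the authors obtained with the size factor of each library, not raw counts, so count tests were not used. Removing duplicates caps highly expressed genes, and rounding blurs low values. Columns of fold changes or p-values were not used.

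Genes with a mean above 5 (16643 of 22736) were fitted as log2(value + 1) with limma 3.58.1 (R 4.3.3, lmFit, eBayes with trend), 6 condition means and 6 residual degrees of freedom, in 11 comparisons, each adjusted over all genes (Benjamini-Hochberg). Fold changes on this scale understate those of low genes. Genes were called at an adjusted p below 0.05 and a log2 change beyond 0.585. The 10 genes, gene lists and tests were chosen with earlier results of these data known. In other lists, up to 4 called genes with the largest myd88+/+ change at 24 hpci against UT were named. Replicates were separate pools. Alternatives were other pseudocounts, no filter, TMM factors, only the groups compared, eBayes without trend, no fold threshold, a replicate block and leaving out each library. Single genes outside the 10 were not followed through these alternatives.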

Additional observations from a re-analysis of the deposited data

Results flagged for a closer look

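hmgcra was singled out because its libraries moved in opposite directions in the 2 genotypes. At 24 hpci against UT, both myd88-/- libraries (55 and 40 normalized counts) were above both myd88-/- UT libraries (26 and 17), while both myd88+/+ libraries (81 and 76) were below both myd88+/+ UT libraries (191 and 224). The difference between the 2 changes was 2.51 ± 0.68 (SE) on the log2(normalized count + 1) scale, and the limma interaction test did not pass over all genes (adjusted p = 0.30). The mutant change on its own was not called either (1.12, adjusted p = 0.10).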

How the results depend on the processing

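None of the called differences of the 10 genes changed sign under the alternatives run. The number of the 10 called moved as follows. In myd88-/- hearts at 1 hpci against UT it was 0, and 1 (srebf2) with TMM factors. In myd88+/+ hearts it was 2 at 1 hpci against UT, and 1 with a pseudocount of 0.5 and 0 with only the groups compared. At 24 hpci against UT in myd88+/+ hearts it was 1 (hmgcra), and 2 with a pseudocount of 5; without a trend in eBayes it stayed at 1, with lss called and hmgcra not (adjusted p = 0.051). At 24 against 1 hpci in myd88+/+ hearts it was 4, and 1 with only the groups compared. Between the genotypes in UT ventricles it was 2, and 1 with only the groups compared. Fitting only the groups compared leaves 2 residual degrees of freedom. Leaving out 1 library gave 0 to 1, 1 to 2 and 1 to 3 genes in myd88-/- hearts (1 hpci against UT, 24 hpci against UT, 24 against 1 hpci), 1 to 2, 0 to 2 and 2 to 5 in myd88+/+ hearts, 0 to 2 for the genotype in UT ventricles, and 0 in the other 4 comparisons. A library left alone in its condition is then assumed to vary like the others.

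The replicate numbers name separate pools of fish. Deviations of same-numbered libraries correlated at 0.16 to 0.28 between the states of myd88-/- hearts, at 0.0081 to 0.28 between those of myd88+/+ hearts, and at -0.35 to -0.02 between the genotypes. No label ties a number to a shared day or batch, and with 2 numbers per condition these values do not settle whether libraries within a genotype are paired. With the replicate number as a block, 1 gene (srebf2) was called in myd88-/- hearts at 1 hpci against UT and 2 in myd88+/+ hearts at 24 hpci against UT, and the other counts stayed within 1.5 times. With crossed numbers, an alternative chosen after seeing the data, 1 gene was called in myd88-/- hearts at 1 hpci against UT.

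Among all genes tested, the calls between genotypes in UT ventricles were 347, and 206 without a trend, 218 with the block and 629 with crossed numbers. At 1 hpci they were 20, and 33 with a pseudocount of 5, 0 with only the groups compared, 11 with the block and 54 with crossed numbers. At 24 hpci they were 5, and 20, 0 and 3 with a pseudocount of 5, only the groups compared and no trend. Calls in myd88+/+ hearts with all 12 libraries and with only the groups compared were 1453 and 0 (1 hpci against UT), 6648 and 4061 (24 hpci against UT) and 5793 and 1902 (24 against 1 hpci), and the first was 2252 with crossed numbers. The interaction had 23 calls at 1 hpci, and 14 without a filter, 15 with TMM factors, 1 without a trend, 7 with the block and 37 with crossed numbers. At 24 hpci it had 8, and 0 with only the groups compared, 3 without a trend, 5 with the block and 22 with crossed numbers. Leaving out 1 library gave 23 to 552, 2 to 295 and 0 to 2156 calls between the genotypes (UT, 1 hpci, 24 hpci), 2 to 223 and 2 to 1235 for the interactions (1 hpci, 24 hpci), 465 to 2352, 1801 to 5849 and 2813 to 6455 in myd88-/- hearts (1 hpci against UT, 24 hpci against UT, 24 against 1 hpci), and 236 to 2079, 3779 to 7678 and 4490 to 6661 in myd88+/+ hearts. Values near or below the floor of 3 reads set the limit of what can be compared. In myd88-/- hearts sqlea was below that floor in UT ventricles, at 2 and 2, where 3 reads were worth 2.87 and 3.16. It was also below the floor there at 1 hpci, at 1 and 0.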

Other observations

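Red blood cell markers had summed levels of 4788 and 5818 at 1 hpci against 2161 and 2258 in UT ventricles in myd88-/- hearts, and of 5301 and 5128 against 3047 and 2737 in myd88+/+ hearts. Among them slc4a1a and alas2 were called higher in myd88-/- hearts and slc4a1a alone in myd88+/+ hearts. Among all genes 5.9% and 5.01% were called higher in these genotypes. The hemoglobin genes were not called in either genotype. Removing duplicates caps highly expressed genes, so the lack of calls does not show that hemoglobin RNA was unchanged. mylipb, whose mammalian counterpart marks the LDL receptor for degradation, was at 185 and 127 at 1 hpci against 26 and 38 in UT ventricles in myd88-/- hearts, and at 285 and 236 against 34 and 57 in myd88+/+ hearts. It rose in both genotypes (limma adjusted p = 0.0029 and 0.0025) and was at 37 and 54 in myd88-/- and 36 and 35 in myd88+/+ hearts at 24 hpci. It was named after its values were seen. Over the same hour ldlra was not called in either genotype (0.30 and 0.57). Its RNA does not show the amount of receptor protein, which was not measured here.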
